A study of Homo sapiens with 23 samples.

Results

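Messenger RNA of 10 mucin and trefoil factor genes (MUC1, MUC2, MUC3A, MUC5AC, MUC5B, MUC13, MUC17, MUC20, TFF1 and TFF3) was compared across the iGLC platform, a chip in which a gut chamber and a liver chamber can be kept apart or linked by pumped medium. The genes were chosen by name and are 10 of the 60564 genes listed in each of the 23 deposited libraries. The gut chamber held Caco-2, an epithelial line from a human colorectal adenocarcinoma, and the liver chamber held HepG2, a line from a human hepatocellular carcinoma. Each line was mono-cultured or co-cultured with the other, and was either untreated (control) or given FFAs, a mixture of palmitic and oleic acid at 1 mM in total, for 1 day. Every group had 3 libraries, apart from the Caco-2 controls in co-culture with 2. No group carried an engineered allele, and each line stands for a single tumor, so neither group holds normal goblet cells, bile duct cells or hepatocytes by design. The study used the chip as a model of fat loading along the gut-liver axis in non-alcoholic fatty liver disease, and its design asks of each gene whether FFAs, the linked chamber or both changed it.

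Mucins are large glycoproteins whose repeated serine- and threonine-rich stretches carry dense O-linked sugar chains. The gel-forming mucins MUC2, MUC5AC and MUC5B are secreted and make up mucus, whereas MUC1, MUC3A, MUC13, MUC17 and MUC20 are anchored in the cell membrane and stand in the glycocalyx. Trefoil factors are small, disulfide-rich peptides that are secreted together with mucins and are known for their part in repair of the epithelial surface. In the intestine TFF3 is a product of goblet cells, and in the stomach TFF1 is a product of surface mucous cells. In the liver, mucins and trefoil peptides are known mainly from the bile ducts rather than from hepatocytes.

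Values were TPM, which express each transcript as a share of its library corrected for length, and levels of different genes are set side by side on this scale. The members run from 492 exon bases (TFF1) to 18598 (MUC5B), and whether coverage was even over such lengths was not tested. TPM keep no record of read number, the depth of a library is therefore unknown, and a gene without signal is given as listed at 0. Replicates were taken from the labels, which do not say whether they were separate chips, so every p-value covers only the spread between these libraries. Caco-2 libraries held 20996 to 23689 genes above 0 TPM and HepG2 libraries 19259 to 22416. The line labels were checked with marker genes. Of 12 intestinal epithelial markers the summed level was 956 to 1333 TPM in Caco-2 and 160 to 318 TPM in HepG2 libraries, and of 12 hepatocyte markers it was 3376 to 5780 TPM and 41395 to 65040 TPM. In mono-cultured controls 9 of 11 tested intestinal markers were called higher and 1 lower in Caco-2, and 10 of 12 hepatocyte markers were called lower and 1 higher. Among all 16495 genes tested, 39% were called higher and 23.4% lower, and a marker could enter the test through 1 line alone. Because the RNA was measured in bulk, fewer cells of a type and less RNA per cell cannot be told apart. Some co-cultured libraries had more of a marker of the opposite line than any mono-cultured library of their own line. In Caco-2 these were co-cultured control replicate 1 and co-cultured FFAs replicates 1 and 2, with 42.8, 133 and 10.2 TPM of TF (transferrin, a liver plasma protein) against at most 9.45 TPM in mono-culture. In HepG2 they were co-cultured FFAs replicates 1 and 3, with 2.75 and 1.79 TPM of CDH17 (an intestinal cadherin) against at most 0.76 TPM in mono-culture. TF and CDH17 were chosen after seeing the data, each as 1 of the 12 markers of its list. The summed hepatocyte markers of these Caco-2 libraries were 5060, 5384 and 5780 TPM, against 3376 to 5439 TPM in mono-culture. The summed intestinal markers of these HepG2 libraries were 232 and 191 TPM, against 208 to 318 TPM in mono-culture. Whether RNA of the opposite line was present was not tested. The co-culture and FFAs differences of the trefoil genes are given with and without these libraries.

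TFF3 carried most of the signal of the family in both lines. It made up 85.6% ± 4.40 of the summed TPM of the 10 genes in Caco-2 cells (SD, n = 11) and 84.5% in HepG2 cells (range 67.8 to 96.3%, n = 12). The summed level itself was 466 TPM in Caco-2 cells (range 322 to 577) and 16.1 TPM in HepG2 cells (range 6.45 to 28.04). The 8 mucins together reached only 18.1 TPM in Caco-2 cells and 1.84 TPM in HepG2 cells. Ordered by mean level, the genes in Caco-2 cells ran TFF3, TFF1, MUC13, MUC3A, MUC20, MUC1, MUC17 and MUC5AC, with MUC5B and MUC2 level at the bottom. Library ranges of TFF3 and TFF1 overlapped no other member's, those of MUC13 and MUC3A overlapped each other, MUC20 overlapped none, and MUC1, MUC17 and the gel-forming mucins overlapped among themselves. TFF3 stood at rank 385 and TFF1 at rank 4191 of the 31100 genes above 0 TPM in Caco-2 cells, and MUC13, MUC3A and MUC20 stood at ranks 9438, 10175 and 12677.

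**Figure D1:**
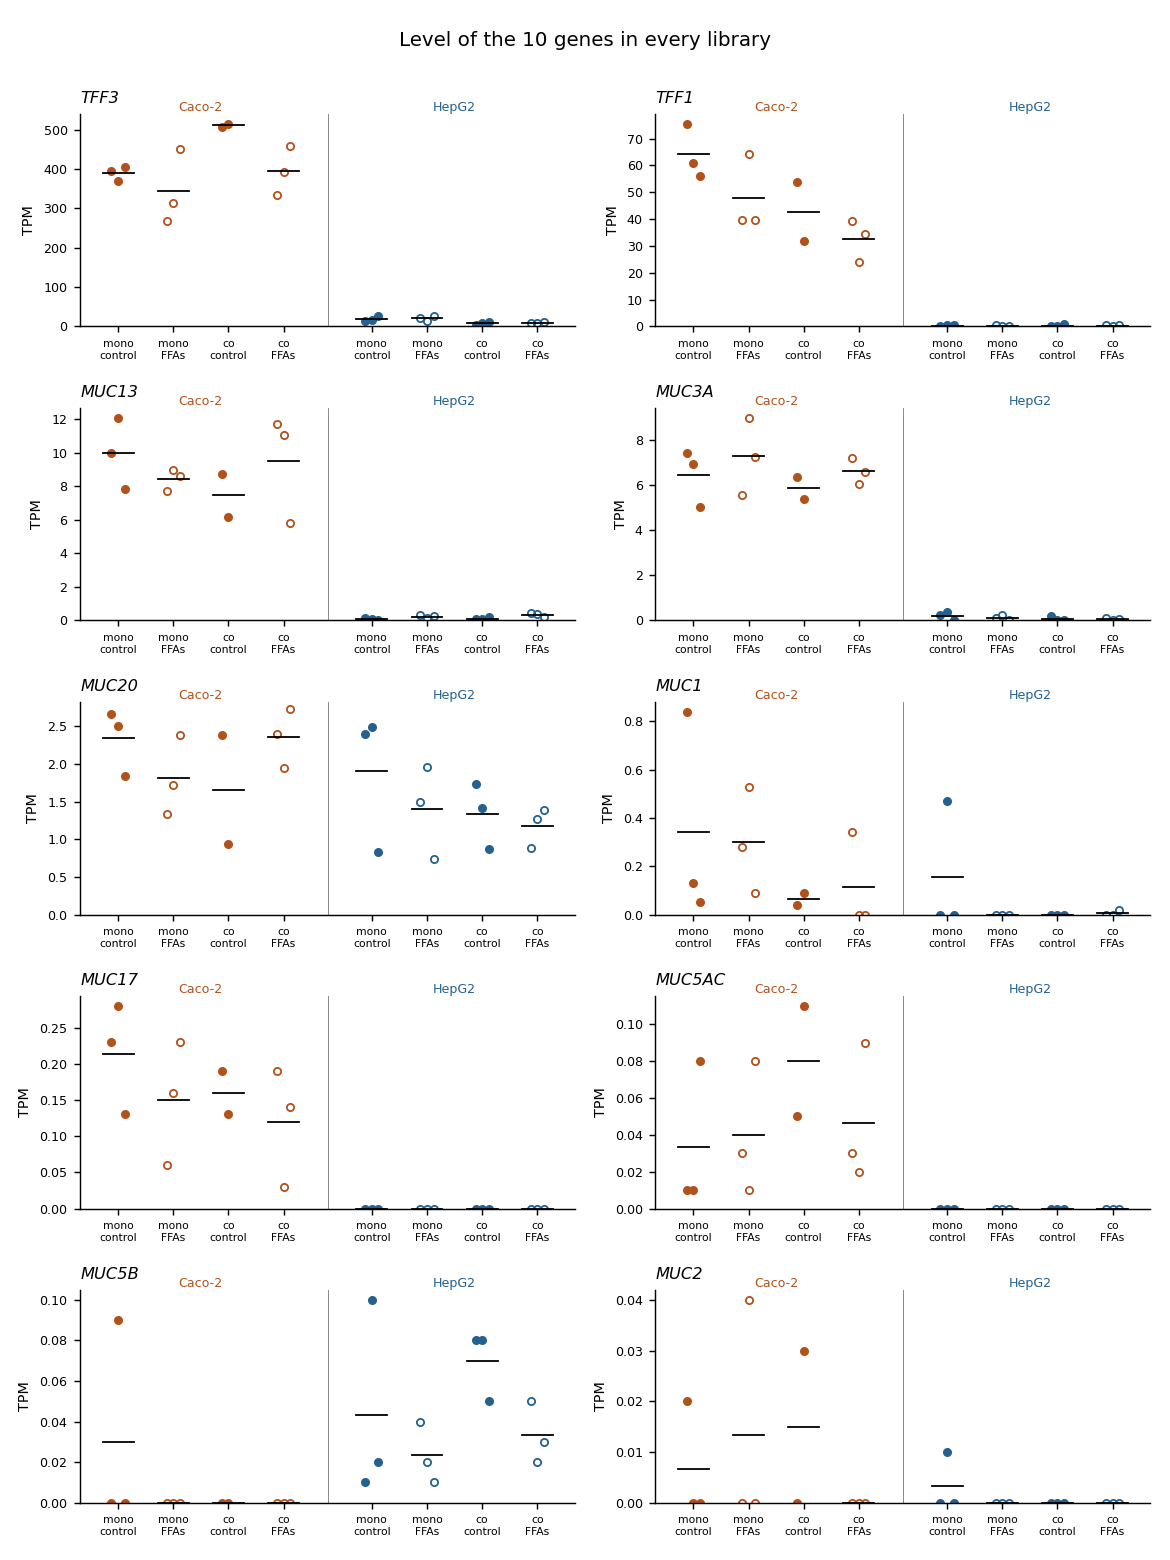
TPM of the 10 genes in every library, 1 panel per gene with its own linear axis from 0, with filled points for control, open points for FFAs and a black bar for the group mean. TFF3 lies at 268 to 515 TPM in the 11 Caco-2 libraries and at 4.37 to 26.7 TPM in the 12 HepG2 libraries, while MUC2, MUC5AC and MUC5B stay at or below 0.11 TPM in both lines.

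TFF3, the goblet cell trefoil peptide, lies on the minus strand at chr21:42311667-42315409 (GRCh38), beside TFF2 and TFF1 in the trefoil cluster. In mono-cultured Caco-2 cells TFF3 stood at 393, 369 and 404 TPM in the controls and at 268, 313 and 449 TPM with FFAs. In co-cultured Caco-2 cells it stood at 506 and 515 TPM in the controls and at 335, 391 and 458 TPM with FFAs. The co-cultured controls were thus the highest Caco-2 libraries, and the FFAs-treated libraries spread more widely than the controls in both cultures. HepG2 controls had 12.6, 15.6 and 26.7 TPM of TFF3 in mono-culture and 4.37, 8.40 and 10.8 TPM in co-culture. FFAs-treated HepG2 cells had 20.2, 14.95 and 26.3 TPM in mono-culture and 9.24, 7.55 and 10.99 TPM in co-culture. All 6 co-cultured HepG2 libraries were therefore below all 6 mono-cultured ones. Replicate 3 had the most TFF3 in every group that held it, and the co-cultured Caco-2 controls had no replicate 3.

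TFF1, the stomach-type trefoil peptide at chr21:42362282-42366535 (minus strand), was the next most abundant member in Caco-2 cells. Its level was 75.5, 60.9 and 56.1 TPM in mono-cultured controls and 39.5, 64.4 and 39.5 TPM in mono-cultured FFAs-treated cells. In co-culture it was 53.6 and 31.8 TPM in the controls and 39.1, 24.1 and 34.5 TPM with FFAs. Mono-cultured controls were the highest group, and both co-cultured libraries without FFAs lay below all of them. In HepG2 cells TFF1 was listed at 0 in 6 of 12 libraries and reached at most 0.89 TPM. The ratio of TFF3 to TFF1 in Caco-2 cells was 6.92 ± 2.36 in mono-culture (SD, n = 6, range 4.86 to 11.4) and 12.7 ± 3.63 in co-culture (SD, n = 5, range 8.57 to 16.2), with overlapping ranges. The cluster's remaining gene, TFF2, which is not among the 10, stood at 21.9 to 63.6 TPM in Caco-2 and 0 to 0.64 TPM in HepG2 libraries.

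Among the membrane mucins, MUC13 and MUC3A were the most abundant in Caco-2 cells. MUC13, a short membrane mucin of the intestinal surface at chr3:124905442-124953819 (minus strand), had 9.97, 12.1 and 7.85 TPM in mono-cultured controls and 7.71, 9.0 and 8.60 TPM with FFAs. Co-cultured Caco-2 cells had 8.77 and 6.20 TPM of MUC13 in the controls and 11.7, 11.04 and 5.79 TPM with FFAs. All 4 groups overlapped. MUC3A, a membrane mucin of the brush border at chr7:100949534-100968347 (plus strand), had 7.41, 6.95 and 5.04 TPM in mono-cultured controls, 5.56, 8.99 and 7.27 TPM with FFAs, 6.37 and 5.37 TPM in co-cultured controls, and 7.21, 6.06 and 6.57 TPM in co-culture with FFAs. These groups overlapped as well. In HepG2 cells MUC13 was above 0 in 12 of 12 libraries but at no more than 0.43 TPM, and MUC3A was at no more than 0.37 TPM.

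The promoters of both membrane mucins are shown because their transcripts differed strongly between the lines and their start regions differ in composition. The 250 bases before the start were taken from RefSeq (GRCh38.p14), which held 5 of the 10 genes in the table used here. MUC13 lies at chr3:124934752-124935001, minus strand, inside the longer span that GENCODE gives the gene, and MUC3A at chr7:100949284-100949533, plus strand. Each is written 5′ to 3′ with a motif match in capitals.
MUC13: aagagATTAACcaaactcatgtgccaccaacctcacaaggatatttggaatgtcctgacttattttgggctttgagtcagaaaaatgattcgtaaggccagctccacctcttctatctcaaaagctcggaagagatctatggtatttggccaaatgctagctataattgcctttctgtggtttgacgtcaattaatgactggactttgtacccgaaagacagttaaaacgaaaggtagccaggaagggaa
MUC3A: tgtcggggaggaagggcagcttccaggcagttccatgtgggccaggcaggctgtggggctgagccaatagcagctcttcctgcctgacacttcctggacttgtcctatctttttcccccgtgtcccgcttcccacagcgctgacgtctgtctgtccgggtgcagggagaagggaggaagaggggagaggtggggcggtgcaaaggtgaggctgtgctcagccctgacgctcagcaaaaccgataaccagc
The MUC13 window was 41.6% G and C and the MUC3A window 61.6%. Of 5 short motifs searched on both strands, the core promoter element TATAAA, the partial HNF1 motif GTTAAT, the motif AGATAA of the factor family that includes GATA6, the forkhead motif TGTTTNC and the partial HNF4 motif CAAAGGTC, MUC13 held only the second, on the opposite strand and with its first base at position -245 and its last at -240 from the start. MUC3A held none of them. Of all 35116 promoter windows of this length, 6.23% held the partial HNF1 motif, 10.7% the core promoter element, 9.17% the GATA6 family motif, 15.5% the forkhead motif and 0.812% the partial HNF4 motif. Among the other matched genes, MUC1 held the core promoter element and MUC17 the partial HNF4 motif on the gene's own strand, and MUC2 held none.

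MUC20, a membrane mucin known to bind the MET receptor, was the only mucin at a comparable level in both lines. Its level in Caco-2 cells was 2.67, 2.51 and 1.84 TPM in mono-cultured controls, 1.34, 1.72 and 2.39 TPM with FFAs, 2.38 and 0.94 TPM in co-cultured controls, and 2.40, 1.95 and 2.73 TPM in co-culture with FFAs. In HepG2 cells it was 2.40, 2.49 and 0.83 TPM in mono-cultured controls, 1.5, 1.96 and 0.74 TPM with FFAs, 1.73, 1.41 and 0.87 TPM in co-cultured controls, and 0.89, 1.27 and 1.39 TPM in co-culture with FFAs. The libraries of both lines overlapped, and MUC20 was second to TFF3 in HepG2 cells, at rank 12690 of 29942 genes against rank 7562 for TFF3, with no overlap between them. Below MUC20 the order in HepG2 cells was TFF1, MUC13, MUC3A, MUC5B, MUC1 and MUC2, each of which overlapped its neighbor in this order, and MUC5AC and MUC17 were listed at 0. The value is uncertain, because 27.1% of the exon bases of MUC20 (chr3:195720884-195741123, plus strand) lie in exons of MUC20-OT1 on the same strand and 32.7% of its 50-base stretches recur in other genes. MUC20-OT1 itself stood at 39.9 to 67.6 TPM in Caco-2 and 18.2 to 39.0 TPM in HepG2 libraries, far above MUC20.

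MUC1 and MUC17 were near 0. MUC1, the widely expressed membrane mucin of glandular epithelia at chr1:155185824-155192916 (minus strand), had 0.84, 0.13 and 0.05 TPM in mono-cultured Caco-2 controls and 0.28, 0.53 and 0.09 TPM with FFAs. Co-cultured Caco-2 cells had 0.04 and 0.09 TPM in the controls and 0.34, 0 and 0 TPM with FFAs. In HepG2 cells MUC1 was listed at 0 in 10 of 12 libraries, with 0.47 TPM in mono-cultured control replicate 2 and 0.02 TPM in co-cultured FFAs replicate 3. MUC17, a brush border mucin at chr7:101020072-101058859 (plus strand), stood at 0.03 to 0.28 TPM in the 11 Caco-2 libraries and was listed at 0 in all 12 HepG2 libraries.

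The gel-forming mucins lie together at chr11:1074875-1262172, plus strand, and were at or near 0 in both lines. MUC2, the main mucin of colonic mucus, was above 0 in 3 of 11 Caco-2 libraries at no more than 0.04 TPM and in 1 of 12 HepG2 libraries at 0.01 TPM. MUC5AC, known from gastric and airway mucus, stood at 0.01 to 0.11 TPM in Caco-2 libraries and was listed at 0 in all HepG2 libraries. MUC5B, known from airway and salivary mucus, showed the opposite pattern. It was above 0 in all 12 HepG2 libraries, at 0.01 to 0.10 TPM, and in 1 of 11 Caco-2 libraries, at 0.09 TPM. MUC5B shared 2.68% of its 50-base stretches with other genes, and its antisense gene MUC5B-AS1 was listed at 0 in every library. The list of 6 goblet cell markers holds, beside MUC2, 5 other genes. ATOH1, the factor that specifies secretory cells, stood at 0 to 0.07 TPM, and CLCA1, a protein of goblet cell mucus, at 0 to 0.09 TPM over all libraries. SPDEF, a goblet cell transcription factor, stood at 0.04 to 0.84 TPM in Caco-2 and 0 to 0.21 TPM in HepG2 libraries. ZG16, a lectin of the mucus layer, reached 0.73 to 3.87 TPM in Caco-2 and at most 0.12 TPM in HepG2 libraries, whereas FCGBP, a mucus protein, was higher in HepG2 libraries (3.57 to 6.43 TPM) than in Caco-2 libraries (0.01 to 1.36 TPM). Among further goblet cell products, AGR2 (268 to 550 TPM) and REG4 (55.5 to 214 TPM) were abundant in Caco-2 cells, as TFF3 was, while MUC2, ATOH1 and CLCA1 were near 0. AGR2 and REG4 are examples from a longer list of such products, on which other genes were lower in Caco-2 than in HepG2 cells or were not tested.

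The mono-cultured controls were compared to ask how the lines differ before any treatment. Members whose mean reached 1 TPM in any group entered a test, which left 5 of 10 (TFF1, TFF3, MUC3A, MUC13 and MUC20), and 4 of them were called higher in Caco-2 at an adjusted p under 0.05, with none lower. Among all 16495 genes tested, 62.4% were called, 39% higher and 23.4% lower. TFF1, MUC13 and MUC3A passed the filter through Caco-2 cells alone, with HepG2 group means of at most 0.31, 0.33 and 0.21 TPM. The count therefore carries no weight beyond its members, and the adjusted p-values of these genes only describe them. Differences are on the log2(TPM + 1) scale, Caco-2 minus HepG2, and adjusted p-values are from limma with Benjamini-Hochberg adjustment. TFF1 differed by 5.66 (SE 0.28, limma adjusted p = 1.55e-12) and TFF3 by 4.40 (SE 0.28, limma adjusted p = 4.61e-11). MUC13 differed by 3.33 (SE 0.21, limma adjusted p = 3.67e-11) and MUC3A by 2.62 (SE 0.18, limma adjusted p = 1.69e-10). On the log2(TPM + 1) scale differences of genes near 0 TPM are smaller than plain log2 fold changes. Over the alternative settings the differences reached 7.70 for TFF1, 5.86 for MUC13 and 4.66 for MUC3A, against 4.70 for TFF3. The order of their sizes thus depended on the settings. In each of these 4 genes all 3 Caco-2 controls lay above all 3 HepG2 controls, as in 41.9% of all 16495 genes. MUC20 differed by 0.25 (95% interval -0.31 to 0.81, limma adjusted p = 0.430), with overlapping libraries.

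Genes that act with the mucins were read from lists chosen by function. These genes, too, could enter the test through 1 line alone, so their counts and medians carry no weight beyond the genes, and they stand beside the 39% of all genes called higher, the 23.4% called lower and the median of 0.2 over all genes tested. Of 14 transcription factors of the secretory lineage and gut endoderm, 12 were tested, 7 were higher and 3 lower in Caco-2 controls, with a median difference of 2.17. The largest differences were those of CDX2, the intestinal homeobox factor (6.01, with 60.4 to 136 TPM in Caco-2 and 0.02 to 0.73 TPM in HepG2 libraries), CREB3L1 (4.46) and GATA6 (4.14). Of 15 goblet cell products, 11 were tested, 8 were higher and 2 lower, with a median of 1.77. They were led by REG4 (7.23), AGR2, a disulfide isomerase needed for mucin folding (5.85, with 268 to 550 TPM in Caco-2 and 1.24 to 13.7 TPM in HepG2 libraries), and SYTL2 (5.35). Of 25 enzymes of mucin O-glycosylation, 21 were tested, 9 were higher and 6 lower, and their median of 0.1 was below that of all genes. The 3 largest differences belonged to GALNT6 (6.57) and GALNT3 (5.43), which start O-linked chains, and FUT2 (4.10), which adds terminal fucose. Of 12 names listed for proteases and partners of membrane mucins, NHERF1 and SLC9A3R1 stand for the same gene. Of these names 11 were found and 10 tested, with 5 higher and 0 lower at the same threshold and a median of 0.37. Here ST14, a membrane serine protease, differed by 7.76, LGALS3, a lectin that binds mucins, by 4.05, and PDZK1 by 0.91. Of 13 further mucin and trefoil genes 3 were tested, and TFF2 was higher (5.52) while MUC15 (-1.52) and OVGP1 (-0.75) were lower in Caco-2 cells, with MUC15 at 0.67 to 3.55 TPM in HepG2 libraries. The median over those 3 was -0.75.

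Co-culture was compared with mono-culture to ask whether the linked chamber changed the members. In HepG2 cells TFF3 was lower in co-culture, but no member passed the adjusted threshold in the fit that left replicate numbers out. Over both treatments TFF3 averaged 8.55 ± 2.44 TPM in co-culture and 19.4 ± 6.03 TPM in mono-culture (SD, n = 6 each), a difference of -1.09 on the log2(TPM + 1) scale (SE 0.23, 95% interval -1.59 to -0.58), or 0.47 of the mono-culture level on that scale. Its limma adjusted p was 0.117 over 14255 genes, of which 0.0561% were called, and at an unadjusted p under 0.05 TFF3 alone of the 2 members tested passed, beside 12.5% of all genes. The groups did not overlap, which held for 0.758% of all genes in this direction. The difference was -1.13 without FFAs (limma adjusted p = 0.578) and -1.05 with FFAs (limma adjusted p = 0.821), with 0% of genes called in either, and in both the libraries did not overlap, as in 7.6% and 5.44% of all genes. MUC20, the other member tested, differed by -0.19 (95% interval -0.66 to 0.27).

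Markers of other cells were raised in 2 of the 6 mono-cultured HepG2 libraries. The mono-cultured libraries with the most TFF3, control replicate 3 and FFAs replicate 3, were the only HepG2 libraries with all 4 fibroblast markers (COL1A1, COL1A2, COL3A1 and DCN) above 0, at 7.46 and 17.6 TPM in sum against 0.22 to 2.00 TPM in the other 10. Both libraries were replicate 3, which also had the most TFF3 in each co-cultured HepG2 group (10.8 and 10.99 TPM). Whether TFF3 went with the replicate number or with the fibroblast markers was not tested. The remaining 4 mono-cultured libraries had 0.81 to 1.91 TPM of these markers, within the range of the co-cultured ones. Their TFF3 level was 12.6 to 20.2 TPM, against 4.37 to 10.99 TPM in the co-cultured libraries. Without the 2 libraries the TFF3 difference was -0.85 (limma adjusted p = 0.118). The summed hepatocyte markers were 54306 to 65040 TPM in mono-cultured and 41395 to 56826 TPM in co-cultured HepG2 libraries. None of these 12 markers was called for co-culture, beside 0.0561% of all genes. The part of these markers in the TFF3 difference was not tested. Without the co-cultured HepG2 libraries that had raised CDH17, the difference was -1.21 (limma adjusted p = 0.238).

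**Figure D2:**
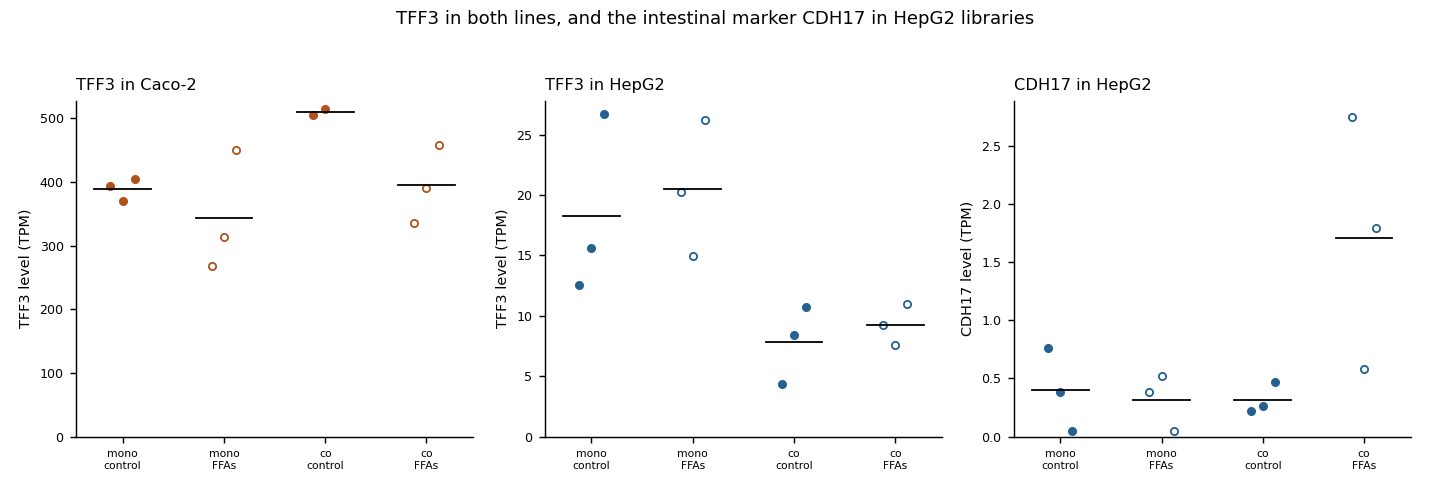
TPM of TFF3 in every Caco-2 and HepG2 library and of the intestinal cadherin CDH17 in every HepG2 library, by group, with filled points for control, open points for FFAs and a black bar for the group mean. The 6 co-cultured HepG2 libraries lie at 4.37 to 10.99 TPM and the 6 mono-cultured ones at 12.6 to 26.7 TPM. The 2 co-cultured Caco-2 controls lie at 506 and 515 TPM, above the other Caco-2 libraries. CDH17 is on average highest in co-cultured HepG2 cells with FFAs (0.58 to 2.75 TPM), against at most 0.76 TPM in mono-culture.

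In Caco-2 cells the trefoil genes differed in opposite directions, and neither passed the adjusted threshold. Over both treatments TFF3 was higher in co-culture by 0.31 (SE 0.12, 95% interval 0.04 to 0.58, limma adjusted p = 0.435) and TFF1 was lower by a difference of -0.57 (SE 0.18, 95% interval -0.97 to -0.16, limma adjusted p = 0.351). At an unadjusted p under 0.05 both passed, of 5 members tested, beside 10.5% of all 15081 genes. Called genes were 0% over both treatments, 0.0199% without FFAs and 0% with FFAs, and none of them was a member. Without FFAs the co-cultured controls did not overlap the mono-cultured ones in TFF3, which was higher (0.39, limma adjusted p = 0.867), nor in TFF1, which was lower (-0.61, limma adjusted p = 0.867). Without co-cultured control replicate 1, which had raised TF, the differences were 0.41 for TFF3 and -0.98 for TFF1, and without co-cultured control replicate 2 that of TFF1 was -0.24, so its size depended on which of the 2 co-cultured controls was kept. With 2 libraries against 3, 15.1% of all genes lay wholly higher and 7.99% wholly lower. With FFAs TFF1 again did not overlap (-0.53, limma adjusted p = 0.830), as for 4.63% of genes in this direction, although 39.1 and 39.5 TPM were adjacent, and TFF3 overlapped (0.22, limma adjusted p = 0.899). Without the libraries with raised TF, which left 1 co-cultured library with FFAs, these differences were -0.42 for TFF1 and 0.45 for TFF3.

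The membrane mucins of Caco-2 cells differed less between cultures. MUC13 differed by -0.13 (95% interval -0.53 to 0.27), MUC3A by -0.11 (-0.42 to 0.21) and MUC20 by -0.05 (-0.46 to 0.35). The median difference of the 5 members was -0.11, against 0.03 over all genes. Without the 3 Caco-2 libraries with raised TF, TFF3 differed by 0.43 (limma adjusted p = 0.446), TFF1 by -0.7 (limma adjusted p = 0.352) and MUC13 by -0.53 (limma adjusted p = 0.368).

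Whether co-culture acted differently on the lines was tested directly, as the Caco-2 effect minus the HepG2 effect in a fit of all 8 groups. TFF3 differed by 1.40 (SE 0.28, 95% interval 0.8 to 1.99, limma adjusted p = 0.0330), the single member called among 5 tested, where 0.533% of 16495 genes were called. TFF3 was thus higher in co-culture in Caco-2 cells (0.31) and lower in HepG2 cells (-1.09). In fits that left replicate numbers out, the difference between these effects passed the threshold although neither effect did alone. The call rested on several libraries. It was kept in 13 of 23 fits that each left out 1 library and missed in 10, at limma adjusted p-values of 0.0517 to 0.0728, with differences of 1.23 to 1.52 over all 23. It was missed when mono-cultured control 1 or 2, mono-cultured FFAs 1 or 2, co-cultured control 1 or 2 or co-cultured FFAs 2 of Caco-2 was left out, and when mono-cultured control 2, mono-cultured FFAs 3 or co-cultured FFAs 2 of HepG2 was. Without all libraries that had a raised marker of the opposite line the difference was 1.64 (limma adjusted p = 0.121), and without the HepG2 libraries that had fibroblast markers it was 1.15 (limma adjusted p = 0.0313).

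Other genes called in the same test included 3 plasma protein genes of the hepatocyte list, FGA, FGB and FGG, which encode the chains of fibrinogen. Their differences were 1.16 (limma adjusted p = 0.0110), 1.42 (limma adjusted p = 0.0231) and 1.23 (limma adjusted p = 0.0138). In Caco-2 cells they were higher in co-culture by 0.73, 1.15 and 0.82 and in HepG2 cells their differences were -0.43, -0.28 and -0.42, all short of the threshold within a line. These 3 are named because the test called them, so their difference between the lines follows from that choice. None of the other 9 hepatocyte markers was called, and the part of hepatocyte RNA in the TFF3 result was not tested. TFF1 differed by -0.65 between the lines' effects (limma adjusted p = 0.308), MUC13 by -0.21, MUC3A by 0.02 and MUC20 by 0.14.

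**Figure D3:**
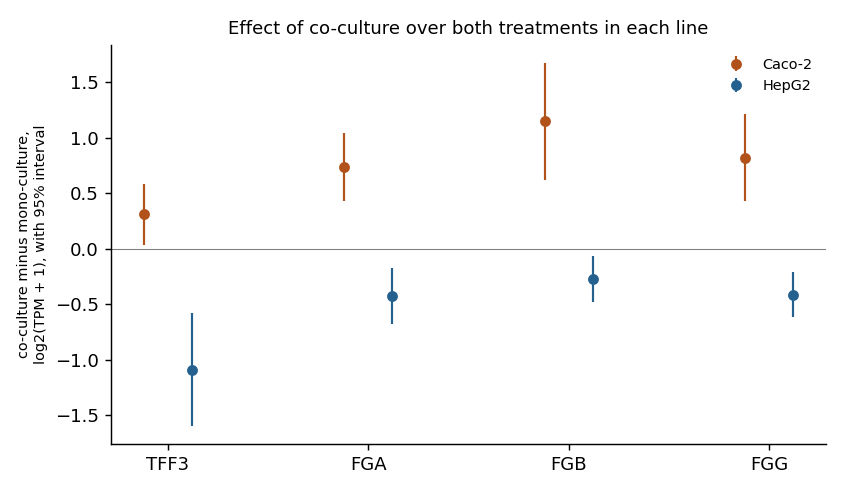
Co-culture minus mono-culture of TFF3 and the fibrinogen genes FGA, FGB and FGG on the log2(TPM + 1) scale in each line, with points for the fitted difference over both treatments and bars for its 95% interval. TFF3 lies at 0.31 in Caco-2 and -1.09 in HepG2 cells, and the fibrinogen genes lie above 0 in Caco-2 and below 0 in HepG2 cells. The fibrinogen genes are drawn because the test between the lines called them, so their difference between the lines follows from that choice.

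FFAs were compared with control within each line and culture. No member passed the adjusted threshold in any of these comparisons. In Caco-2 cells TFF3 was lower with FFAs in both cultures, with differences of -0.21 in mono-culture (SE 0.16) and -0.38 in co-culture (SE 0.18), and its libraries overlapped in mono-culture and did not in co-culture, as in 8.91% of all genes in this direction. Over both cultures the TFF3 difference was -0.3 (SE 0.12, 95% interval -0.57 to -0.03, limma adjusted p = 0.990), or 0.814 of the control level on the log2(TPM + 1) scale. The TFF1 difference was -0.4 (SE 0.18, 95% interval -0.81 to 0.00233, limma adjusted p = 0.990). At an unadjusted p under 0.05 TFF3 alone of 5 members passed over both cultures, beside 3.99% of all genes. The share of genes called was 0% in mono-culture, 0.0199% in co-culture and 0% over both. MUC13 differed by 0.04 (95% interval -0.36 to 0.43), MUC3A by 0.15 (-0.17 to 0.46) and MUC20 by 0.07 (-0.34 to 0.47). In co-culture alone TFF1 differed by -0.36 (SE 0.28, limma adjusted p = 1). Without the 3 libraries with raised TF, the differences over both cultures were -0.19 for TFF3 and -0.17 for TFF1, and in co-culture they were -0.17 for TFF3 and 0.11 for TFF1, which changed direction.

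In HepG2 cells TFF3 was 0.19 higher with FFAs in mono-culture (SE 0.33), 0.27 higher in co-culture (SE 0.33) and 0.23 higher over both (95% interval -0.27 to 0.74), within the spread of the libraries. Without the libraries with raised CDH17 the difference over both was 0.11. MUC20 differed by -0.17 over both cultures (95% interval -0.63 to 0.30). None of the 2 members tested passed an unadjusted p under 0.05, beside 3.49% of all 14255 genes, and 0% of genes were called. Between the lines the FFAs effect on TFF3 differed by -0.53 (SE 0.28, 95% interval -1.13 to 0.07, limma adjusted p = 1), where 0.0182% of genes were called. Whether the FFAs effect differed between cultures was also tested within each line, and 0% of genes were called. The TFF3 effect in co-culture minus that in mono-culture was -0.17 (95% interval -0.71 to 0.37) in Caco-2 and 0.09 (95% interval -0.92 to 1.09) in HepG2 cells, intervals that leave room for differences in either direction.

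**Figure D4:**
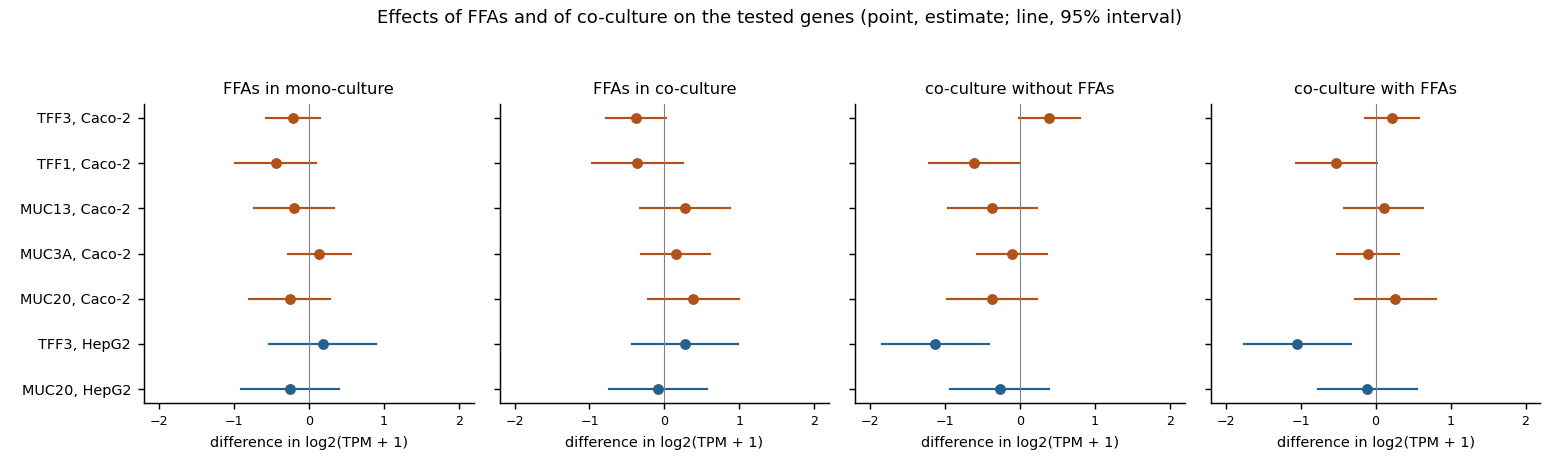
Fitted differences of the tested members on the log2(TPM + 1) scale for FFAs within each culture and for co-culture within each treatment, with points for the estimate and lines for its 95% interval. In HepG2 cells the TFF3 interval for co-culture runs from -1.84 to -0.42 without FFAs and from -1.76 to -0.33 with FFAs, and every interval of MUC13, MUC3A and MUC20 includes 0.

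The methods of the study select differing genes by an unadjusted p under 0.05 in analysis of variance and a minimum log2 fold change between any pair of samples. They name neither group means nor a scale, so a version was applied here with a one-way analysis over the 4 groups of a line and the difference between group means of log2(TPM + 1), which is smaller for low genes than a plain log2 fold change. It was met by 0 of the 10 members in Caco-2 cells, where 3.08% of 31100 genes met it, and by 2 members in HepG2 cells, where 3.56% of 29942 genes did. The 2 were TFF3, whose largest pair difference was 1.32, and MUC13, whose largest was 0.30. MUC13 stood at 0.13, 0.08 and 0.02 TPM in mono-cultured HepG2 controls, 0.31, 0.13 and 0.25 TPM with FFAs, 0.08, 0.06 and 0.18 TPM in co-cultured controls and 0.43, 0.38 and 0.18 TPM in co-culture with FFAs. Over both cultures MUC13 averaged 0.28 ± 0.116 TPM with FFAs and 0.0917 ± 0.0560 TPM in controls (SD, n = 6 each), and the libraries overlapped. CDH17 was on average highest in the same HepG2 group, at 2.75, 0.58 and 1.79 TPM in co-culture with FFAs. It stood at 0.22 to 0.47 TPM in co-cultured controls and at no more than 0.76 TPM in mono-culture. The part of Caco-2 RNA in the HepG2 values of MUC13 was not tested, and at these levels MUC13 was below the mean of 1 TPM asked for in the fitted comparisons.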

How the data were processed

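The 23 mRNA-seq libraries of Caco-2 and HepG2 cells were grouped by their labels. The authors deposited 1 table of TPM per library. Per the labels, cDNA was made with the SMART-Seq kit. Per the paper's methods, reads from rRNA, tRNA and mitochondria were removed with Bowtie2 2.1.0, STAR 2.7.1a aligned what was left to GRCh38, and RSEM 1.3.0 gave the TPM. The kit does not mark strand, so overlapping genes on opposite strands cannot be told apart. The labels give serum in the treatment medium, whereas the methods describe serum-free medium with albumin. Since TPM are not counts, no count model was used, and depth is unknown.

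Values were analysed as log2(TPM + 1) with limma 3.58.1 (eBayes with a trend) in R 4.3.3, 1 fit for the 4 groups of a line and 1 for all 8 groups, on genes whose mean reached 1 TPM in any group of the fit. A gene was called at a Benjamini-Hochberg adjusted p under 0.05 over all genes of the fit. Contrasts over both treatments or cultures average the effects. Levels were summarised in Python 3.11.15 with pandas 2.3.3 and numpy 2.4.6 and plotted with matplotlib 3.10.9. Positions and shared 50-base stretches came from GENCODE 44 on GRCh38, and promoters from RefSeq. The members and gene lists were chosen with earlier results of these data known. All 10 members were named. Of the lists, each gene called for FFAs or culture and, for the contrast of the lines, the 3 largest differences per list were named. Alternatives were a pseudocount of 0.1, other filters, median-of-ratios scaling, quantile normalization, a replicate block, no trend, fits restricted to the compared groups, leaving out each library and, chosen after seeing the data, leaving out together the libraries with raised markers of the opposite line or with fibroblast markers. The fits were tested on simulated data.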

Additional observations from a re-analysis of the deposited data

Results flagged for a closer look

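The co-culture effect on TFF3 differed between the lines by an interaction test, with a Caco-2 minus HepG2 difference of 1.40 on the log2(TPM + 1) scale (95% interval 0.80 to 1.99, limma adjusted p = 0.0330). TFF3 was 0.31 higher in co-culture in Caco-2 cells and differed by -1.09 in HepG2 cells. Neither effect passed the adjusted threshold within its line in fits that left replicate numbers out. All 6 co-cultured HepG2 libraries lay below all 6 mono-cultured ones, as for 0.758% of all genes, whereas the Caco-2 libraries of the cultures overlapped. The call of the difference between the lines was missed in 10 of 23 fits that each left out 1 library.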

How the results depend on the processing

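Replicate numbers were not treated as pairs, since the labels do not say what a number shares and not every same-numbered pair had r over 0.1. Deviations from the group means of same-numbered libraries correlated at a median r of 0.0880 in Caco-2 (15 pairs, lowest -0.0926, 7 over 0.1) and 0.305 in HepG2 cells (18 pairs, lowest 0.0284, 15 over 0.1), against -0.119 and -0.226 for other numbers, each across genes. As a hint from the data, 10 of 12 HepG2 and 5 of 11 Caco-2 libraries correlated best with their own number. TFF3 was also highest in replicate 3 of every group that held that number. With the replicate number as a block, 1 member was called for co-culture over both treatments in HepG2 cells (TFF3, limma adjusted p = 0.0130), beside 3.45% of all genes, 1 member met the version of the study's criteria in Caco-2 cells, and the block changed no other call of a member.

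The TFF3 difference between the lines' co-culture effects kept its direction in all 32 alternatives (1.15 to 1.64), but its call was lost, giving 0 members, without a filter (limma adjusted p = 0.0696), with quantile normalization (limma adjusted p = 0.0613) and without the libraries with raised markers (limma adjusted p = 0.121), and the count was 0 to 1 when each library was left out. For TFF3 in HepG2 co-culture over both treatments the limma adjusted p ran from 0.0130 to 0.307. The version of the study's criteria was met by 1 member in Caco-2 cells with limma's moderated F test, and by 0 to 1 when each library was left out. In HepG2 cells it was met by 1 with a filter on the overall mean, with quantile normalization, without the libraries with raised markers and without those with fibroblast markers, by 0 after Benjamini-Hochberg adjustment, and by 1 to 2 when each library was left out.

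Directions reversed only for differences whose intervals included 0. When each library was left out in turn, the differences ranged from -0.73 to 0.00670 for TFF1 with FFAs in co-cultured Caco-2 cells, from -0.0741 to 0.18 for MUC13 and from -0.13 to 0.27 for MUC20 with FFAs over both cultures, and from -0.24 to 0.0129 for MUC13 and from -0.26 to 0.15 for MUC20 with co-culture. In HepG2 cells TFF3 ranged from -0.0312 to 0.48 with FFAs in mono-culture and from -0.0490 to 0.52 in co-culture, and MUC20 ranged from -0.0533 to 0.41 between the lines. Without the libraries with raised markers TFF1 was at 0.11 (FFAs in co-cultured Caco-2 cells) and MUC13 at -0.14 (FFAs over both cultures), and without the fibroblast libraries MUC20 was at -0.0533 between the lines. The causes were not tested. Groups of 2 or 3 libraries and unknown depth limit every comparison, most of all the 5 members near 0 TPM.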

Other observations

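Beside TFF3 in Caco-2 cells, the genes whose log2(TPM + 1) was most like it over the 11 libraries were LINC01578 (Pearson r = 0.954), PDCD4 (0.928), TMEM87A (0.920), SCNN1A (0.918) and CDK14 (0.918), the highest of 15080 genes compared. In the same libraries TFF1 had r = -0.18 and TFF2 r = 0.06 with TFF3, although the 3 genes are neighbors. Over the 12 HepG2 libraries the genes most like TFF3 were SMARCAL1 (0.960), HPR (0.929), HLA-H (0.926), NRBP1 (0.910) and CLU (0.906), of 14254 compared, and MUC20 had r = -0.22. These are descriptions over few libraries that share their culture groups.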
